A study of Mus musculus with 4 samples.

Results

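Tbr1, Foxp2, Tle4, Sox5, Bcl11b, Fezf2, Etv1, Nr4a2, Nfia and Nfib encode transcription factors or co-repressors that mark the deep layers and the subplate of the cerebral cortex. The 10 genes were chosen by name as deep layer and subplate regulators, and all 10 were among the 19092 genes of a Drop-seq count table from mouse cortex at postnatal day 7 (P7). Drop-seq encloses single cells in droplets with barcoded beads and counts transcripts by their unique molecular identifiers (UMIs). WT mice were Top1 f/f without Cre. Top1 cKO mice were Top1 f/f with NEX-cre, a Cre inserted at the Neurod6 locus, which is active in postmitotic excitatory neurons of the cortex and hippocampus and not in interneurons, so that interneurons keep Top1. All mice were male, and their strain is labelled C67/Bl6. Top1 encodes topoisomerase 1, which relaxes supercoiled DNA during transcription.

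Deep layer neurons are born before upper layer neurons and send their axons mainly out of the cortex, to the thalamus, brainstem and spinal cord. Their identities are set by transcription factors that repress one another. Fezf2 and Bcl11b promote the subcerebral identity of layer 5, and Tbr1 and Sox5 the corticothalamic identity of layer 6.

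The table held 2 WT samples, whose cells carry the labels WT1 and WT2, and 2 cKO samples, whose cells carry the labels KO2 and KO3. The cKO samples are numbered 1 and 2, so the labels KO2 and KO3 give the genotype and do not tell which mouse a cell came from. All cKO cells hence formed 1 pooled sample with no replicate check. No test was possible, and every interval is a 95% counting interval that does not cover differences between mice. Excitatory cells were gated without the 10 factors, by at least 2 UMIs of Neurod1, Neurod2, Sla and Slc17a7 together and at most 1 UMI of Gad1 and Gad2, among the 1598 cells with at most 10% mitochondrial UMIs. The gate left 503 cells, of which 134 were WT1, 101 WT2, 82 KO2 and 186 KO3.

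Depth and purity differed between the labels. The gated cells of a label held 286334 to 720447 UMIs in all, with a median of 4100 UMIs per cell in WT1, 3064 in WT2, 2450 in KO2 and 3352 in KO3, and no barcode was shared between labels among them (0 shared). Top1, the deleted gene, was at 580 CPM (counts in every 1000000 UMIs of the gated cells) in WT1, 565 in WT2, 143 in KO2 and 156 in KO3. Its log2 ratio, taken as pooled cKO over the pooled WT mice, was -1.99 (-2.27 to -1.74). Of the gate genes, Neurod1, Neurod2 and Sla gave ratios of 0.58, 0.44 and 0.07, and Slc17a7, a vesicular glutamate transporter, was lower in cKO at -0.93. Of 9 further excitatory genes Neurod6 and Nrn1 were lower in cKO, at -0.61 and -0.82, and none of the 9 was higher. Only cKO mice carry the Cre at the Neurod6 locus, so the genotypes differ at this gene by design. Markers of other cells were present in the gate: the summed CPM of 12 astrocyte genes was 773 in WT1, 653 in WT2, 2874 in KO2 and 1001 in KO3, and 9 of the 12 were higher in cKO. Of 8 vascular genes tested, 7 were higher in cKO, and their list summed to 222, 204, 657 and 442 CPM in WT1, WT2, KO2 and KO3. The part of these cells in the results was not tested.

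A gene was called when its ratio of pooled cKO over pooled WT passed 1.5-fold and its cKO level lay beyond both WT mice, among the 9347 genes with at least 20 UMIs in the gated cells. Of all genes tested, 7.2% were called lower and 10.1% higher (673 and 946 genes). With no scaling factors the split was 514 lower and 1168 higher. All 10 factors were tested. Only Nr4a2 was called lower and only Etv1 higher, so 1 of 10 in each direction, which is near the share over all genes. Without the 1.5-fold limit, pooled cKO lay below both WT mice for 4 of the 10 factors and above both for 3. Over all genes tested these shares were 25.9% and 41.0%, so a level beyond both WT mice is common. The median log2 ratio of the 10 factors was -0.09, beside 0.0014 over all genes tested. The median absolute log2 ratio of the 10 factors was 0.305 for cKO over WT and 0.305 for WT2 over WT1. Over all genes tested it was 0.268 and 0.307. WT2 over WT1 rests on fewer UMIs than the pooled ratio and carries more counting error.

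**Figure D1:**
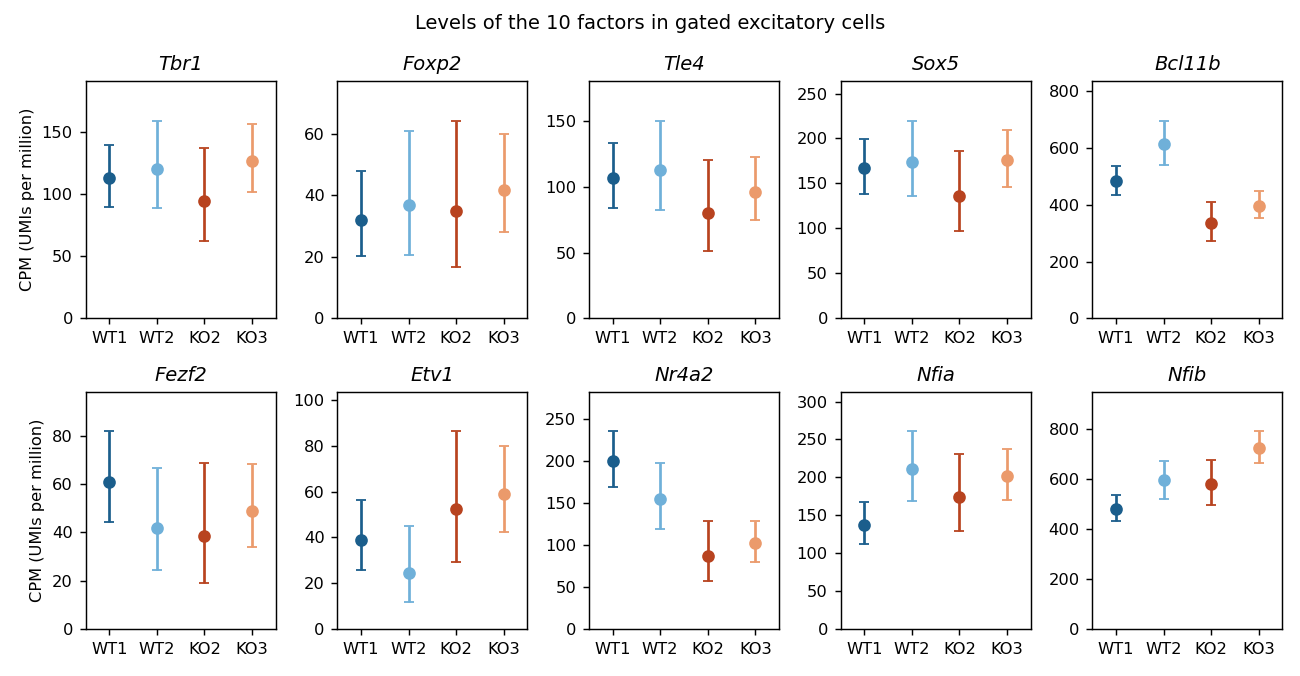
Levels of the 10 factors in gated excitatory cells, in CPM of each label's gated cells, with 95% Poisson counting intervals. Both cKO labels lie below both WT mice for Nr4a2 (87.3 and 102 against 200 and 155 CPM), Bcl11b and Tle4, and above both for Etv1, while Tbr1, Foxp2, Sox5, Fezf2, Nfia and Nfib overlap. Over all genes tested, pooled cKO lay below both WT mice for 25.9% and above both for 41.0%.

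Tbr1, a T-box factor of layer 6 corticothalamic and subplate neurons, had 81 UMIs in WT1, 49 in WT2, 27 in KO2 and 88 in KO3. These are 112, 120, 94.3 and 127 CPM, and the WT mean was 116 ± 5.57 CPM (SD, n = 2). The WT mice lay between the cKO labels, and the log2 ratio of cKO over WT was -0.05 (-0.43 to 0.32). Tbr1 was detected in 29.8% of WT and 26.9% of cKO gated cells. In 150 inhibitory cells, which should lack it, the share was 7.33%, at a median depth of 2910 UMIs against 3376 in the gated cells.

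Foxp2, a forkhead factor of layer 6 corticothalamic neurons, was sparse, with 23, 15, 10 and 29 UMIs in WT1, WT2, KO2 and KO3. At 31.9, 36.8, 34.9 and 41.8 CPM the genotypes overlapped, and the ratio was 0.15 (-0.52 to 0.84). This interval includes a level 1.5-fold higher in cKO.

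Tle4, a Groucho-type co-repressor of layer 6 corticothalamic neurons, had 77, 46, 23 and 67 UMIs in WT1, WT2, KO2 and KO3, which are 107, 113, 80.3 and 96.5 CPM. Both cKO labels were below both WT mice, which differed little from each other (110 ± 4.28 CPM, SD, n = 2). The ratio of -0.32 (-0.74 to 0.08) did not reach 1.5-fold. With all UMIs, cells with 5 or more UMIs of Tle4 were 4 of 235 in WT and 0 of 268 in cKO. The 0 cells allow a share of up to 1.12%. In cells thinned to equal depth, those with 2 or more UMIs of Tle4 were 3 of 235 in WT and 4 of 266 in cKO. Any Tle4 was then detected in 9.79% of WT and 8.65% of cKO cells. A loss of cells rich in Tle4 was thus not seen at equal depth, on few cells. The ratio was -0.62, past 1.5-fold, when the 208 gated cells with 3 or more UMIs of striatal projection neuron markers were left out.

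Sox5, an SRY-box factor that controls the order in which corticofugal neurons arise, had 120, 71, 39 and 122 UMIs in WT1, WT2, KO2 and KO3. The levels were 167, 174, 136 and 176 CPM, and KO3 was level with the WT mice. The ratio was -0.12 (-0.44 to 0.19). Sox5 was detected in 41.8% and 38.6% of WT1 and WT2 cells and in 22.0% and 30.6% of KO2 and KO3 cells. When each cell was thinned to 1000 UMIs the shares were 12.7%, 19.8%, 15.0% and 11.8%, so that the labels overlapped at equal depth.

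Bcl11b, also called Ctip2, a zinc finger factor of subcerebral layer 5 neurons that is also made by interneurons and striatal neurons, had 349 UMIs in WT1, 251 in WT2, 96 in KO2 and 276 in KO3. These are 484, 616, 335 and 398 CPM, and both cKO labels lay below both WT mice. The ratio of -0.57 (-0.76 to -0.38) fell just short of 1.5-fold, which is 0.58 on the log2 scale, so Bcl11b was not called. It was past the limit against WT2 alone (-0.75), for the KO2 label alone (-0.72) and without cells that held markers of other types (-0.80). It was -0.01 when the gate was applied to thinned cells. It was -0.35 without the 3 gated cells over 20000 UMIs, which were all WT1 and held 115 of the 349 WT1 UMIs of Bcl11b.

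The share of cells with Bcl11b was nearly alike, at 48.5% in WT1, 53.5% in WT2, 48.8% in KO2 and 47.8% in KO3. The levels within positive cells differed. The mean in positive cells was 5.37 and 4.65 UMIs in WT1 and WT2, and 2.40 and 3.10 UMIs in KO2 and KO3. These means are not at equal depth and rest in part on few cells. The top 5 cells held 39.0%, 40.2%, 44.8% and 21.0% of the Bcl11b UMIs of WT1, WT2, KO2 and KO3. Cells with 5 or more UMIs made up 17.2% and 16.8% of WT1 and WT2, and 7.32% and 11.3% of KO2 and KO3. At 1000 UMIs per cell, cells with 2 or more UMIs of Bcl11b made up 13.4% in WT1, 10.9% in WT2, 3.75% in KO2 and 5.38% in KO3, while 28.5% of WT and 24.8% of cKO cells held at least 1. The cells rich in Bcl11b were thus less frequent in both cKO labels than in both WT mice, also at equal depth. Pooled, they were 29 of 235 WT cells and 13 of 266 cKO cells. Under 5 other sets of cells, compared in this way after the values were seen, the share stayed higher in WT, from 8.56% against 5.30% with the gate at 1 UMI to 13.1% against 5.11% with the gate at 3 UMIs.

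**Figure D2:**
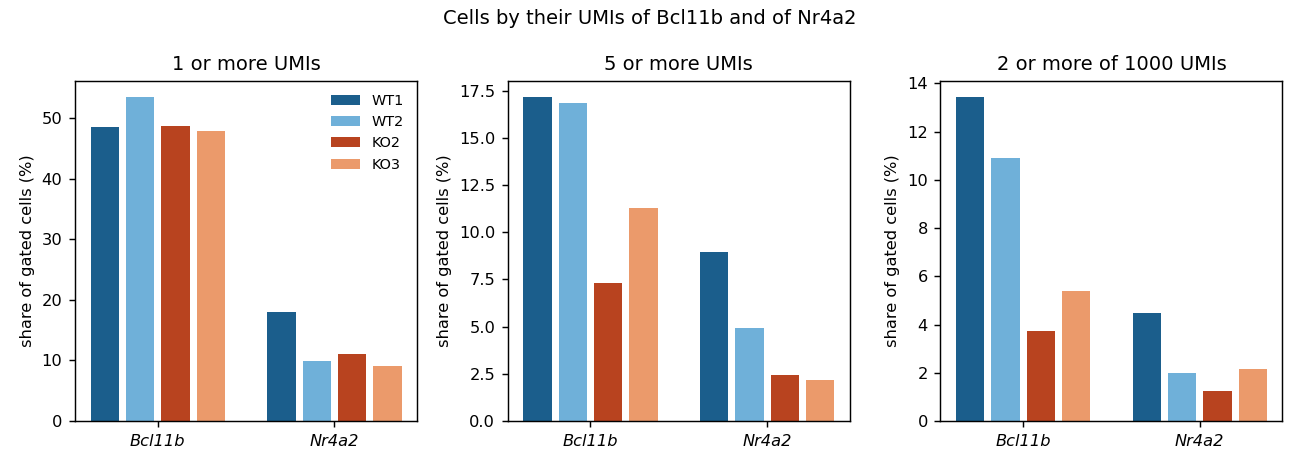
Share of gated cells with at least 1 UMI (left), with at least 5 UMIs (middle) and with at least 2 UMIs after thinning each cell to 1000 UMIs (right) of Bcl11b and of Nr4a2, as bars for WT1, WT2, KO2 and KO3. Bcl11b is detected in 47.8% to 53.5% of cells of every label, while cells with 2 or more of 1000 UMIs are 13.4% and 10.9% in WT and 3.75% and 5.38% in cKO.

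Fezf2, the zinc finger factor that specifies subcerebral layer 5 neurons, had 44, 17, 11 and 34 UMIs in WT1, WT2, KO2 and KO3. At 61.1, 41.7, 38.4 and 49.0 CPM the WT mice differed more (-0.53) than the genotypes (-0.31, -0.91 to 0.26). A UMI of Fezf2 was held by 15.5% of gated cells and by 1 of 150 inhibitory cells.

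Etv1, an ETS factor of layer 5 neurons, was the only factor called higher in cKO. It had 28 UMIs in WT1, 10 in WT2, 15 in KO2 and 41 in KO3, which are 38.9, 24.6, 52.4 and 59.1 CPM. Both cKO labels lay above both WT mice, and the ratio was 0.65 (0.06 to 1.32). The WT mice themselves differed by -0.61, and the call rested on WT2 and on label KO3, since the ratio was 0.44 without WT2 and 0.54 without KO3. It was 0.34 with the gate at 1 UMI, 0.16 without any UMI of Gad1 or Gad2 and 0.35 without cells holding striatal markers, none of which passes 1.5-fold. Without the cells that held markers of other types it was 1.59. At 1000 UMIs per cell Etv1 was detected in 3.40% of WT and 3.76% of cKO cells, at a ratio of 0.04.

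Nr4a2, an orphan nuclear receptor of subplate neurons, layer 6b and the claustrum, was the only factor called lower. Its gene lies on chromosome 2 from 57106830 to 57124003 on the minus strand (GRCm38). The 250 bases before its start, chr2:57124004-57124253 in RefSeq's GRCm38.p6, are shown because NR4A genes are known targets of cAMP signaling. Capitals mark the core letters of the cAMP response element, TGACG, and their reverse complement, CGTCA.

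Nr4a2 upstream: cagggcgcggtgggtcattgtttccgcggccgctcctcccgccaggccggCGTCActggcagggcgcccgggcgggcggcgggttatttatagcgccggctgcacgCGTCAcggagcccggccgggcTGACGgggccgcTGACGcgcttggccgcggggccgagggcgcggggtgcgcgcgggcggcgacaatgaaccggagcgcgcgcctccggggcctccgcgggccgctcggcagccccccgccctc

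The 4 matches, on both strands and without overlap, begin at -200, -144, -123 and -111 from the start. RefSeq windows of 300 bases, from 250 before to 50 after the start, were found for 8 of the 10 factors, and Foxp2 and Nfib had none. Of the 10 windows of these 8 genes only that of Nr4a2 held a match. Over all 32851 windows 20.8% held at least 1 and 0.231% at least 4. The Nr4a2 window was 81.7% G and C, a share that 0.588% of all windows reached. The windows did not all lie at the gene starts that GENCODE gives. The Sox5 window (chr6:143947057-143947356) lay inside its gene (143828425 to 144781977). The windows of Tbr1, Fezf2 and Etv1 and 1 of Tle4 also lay inside their genes, so the windows are not all of like regions. The Nfia window (chr4:97581693-97581992) lay before its gene (97772734 to 98118874). A match is a description of letters and not a measured site.

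Nr4a2 had 144 UMIs in WT1, 63 in WT2, 25 in KO2 and 71 in KO3, or 200, 155, 87.3 and 102 CPM. Both cKO labels were below both WT mice, and the ratio was -0.97 (-1.35 to -0.63). It was -1.10 against WT1 alone and -0.70 against WT2 alone, and WT2 over WT1 was -0.38. The pooled ratio did not pass 1.5-fold in cells with at most 5% mitochondrial UMIs (-0.44), without the cells holding striatal markers (-0.33) or when the gate was applied to thinned cells (-0.08).

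The UMIs of Nr4a2 came from few cells. There were 24 positive cells in WT1, 10 in WT2, 9 in KO2 and 17 in KO3, and the top 5 cells held 50.0%, 81.0%, 84.0% and 71.8% of each label's UMIs. Positive cells held 6.0, 6.30, 2.78 and 4.18 UMIs on average. Cells with 5 or more UMIs numbered 12, 5, 2 and 4, which is 7.23% of WT and 2.24% of cKO cells. At 1000 UMIs per cell, cells with 2 or more UMIs of Nr4a2 made up 4.48% in WT1, 1.98% in WT2, 1.25% in KO2 and 2.15% in KO3, so the genotypes overlapped, and with at most 5% mitochondrial UMIs the order turned, at 1.41% of WT and 3.25% of cKO cells. At 1000 UMIs per cell the shares with any Nr4a2 were 5.53% in WT (2.98 to 9.27) and 4.51% in cKO (2.35 to 7.75). A difference in the share of positive cells was not detectable at this depth. In inhibitory cells 6.0% held a UMI, beside 11.9% of gated cells.

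Some genes differed in level between the 23 cells with 5 or more UMIs of Nr4a2 and the other 480 cells. The genes named were picked after their values were seen, and most of the 20 further deep layer and subplate genes are not shown. Ctgf, a secreted factor of the subplate, was at 112 CPM in the 23 cells and 13.4 CPM in the other 480. Cplx3, a complexin of the subplate, was at 62.4 against 3.08 CPM, on few UMIs that all came from WT cells. Tle4 was at 231 against 90.4 CPM, Tshz3 at 187 against 82.1 and Bcl11b at 806 against 433. Bhlhe22, of the upper layer list, and Pou3f1, of the same deep layer and subplate list as Ctgf, went the other way. They were at 25.0 CPM each, against 155 and 144 in the other cells. No cell type was assigned to the 23 cells, and none can be read from these picked genes. They were 17 WT and 6 cKO cells, and the levels are not split by genotype. Of the 23 cells 21 held Neurod6. The cells were picked on Nr4a2 and were deeper, with a median of 5800 UMIs against 3272.

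Nfia and Nfib, nuclear factor I genes that act in deep layer neurons and in astrocyte formation, were not called. Nfia had 99, 86, 50 and 140 UMIs in WT1, WT2, KO2 and KO3, or 137, 211, 175 and 202 CPM. The cKO labels lay between the WT mice, and the ratio was 0.16 (-0.14 to 0.46) beside 0.59 for WT2 over WT1. It turned to -0.29 without the gated cells that held markers of other types, and passed 1.5-fold without the cells holding striatal markers (0.94), with the gate applied to thinned cells (0.62) and in thinned cells (0.61). Nfib had 347, 242, 166 and 503 UMIs, or 482, 594, 580 and 725 CPM, and a ratio of 0.30 (0.14 to 0.47). At equal depth it was detected in 32.8%, 31.7%, 37.5% and 43.6% of cells. In 198 cells with astrocyte markers Nfia was at 290 CPM in WT and 224 in cKO and Nfib at 463 and 570, and the part of such cells in the gate was not tested. The ratio of Nfib without cells that held markers of other types was 0.21.

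**Figure D3:**
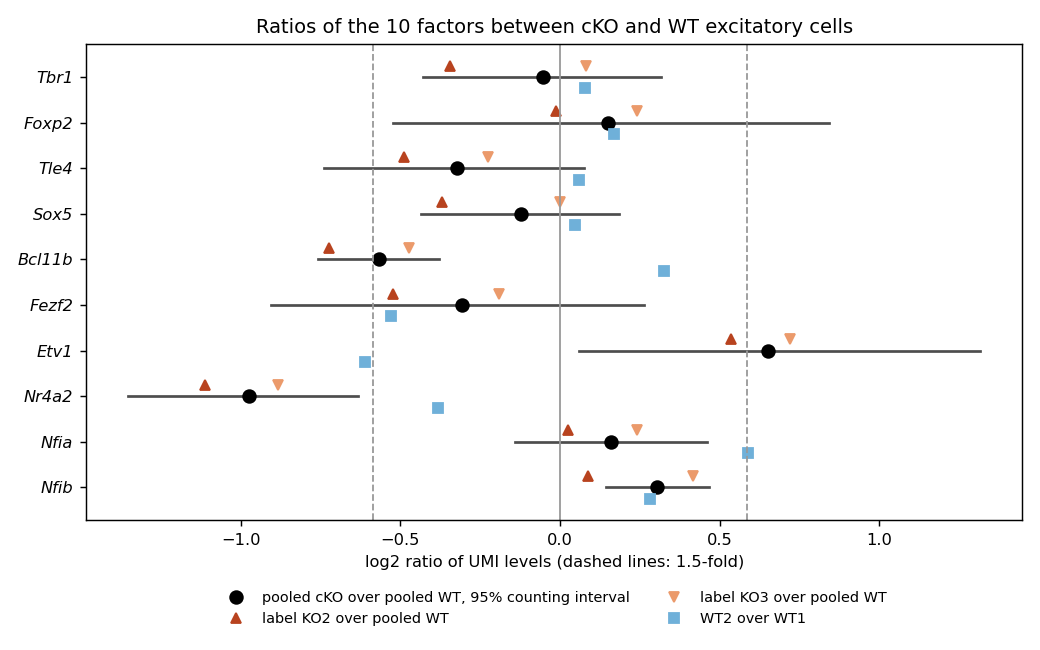
Log2 ratios of the 10 factors, with black points for pooled cKO over pooled WT and lines for 95% counting intervals, triangles for each cKO label and squares for WT2 over WT1. Only Nr4a2 (-0.97) and Etv1 (0.65) lie past the dashed 1.5-fold lines, Bcl11b (-0.57) lies just inside, and WT2 over WT1 reaches -0.61 for Etv1 and 0.59 for Nfia.

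Other genes of the same layers moved both ways. Of 20 further deep layer and subplate genes 16 were tested, 1 was lower and 4 were higher in cKO, with a median ratio of -0.02. Over all genes tested 7.2% were called lower and 10.1% higher. S100a10, an annexin partner of layer 5 neurons, was lower, at 225 and 206 CPM in WT1 and WT2 and 83.8 and 53.3 CPM in KO2 and KO3 (-1.86, -2.32 to -1.48). Syt6, a synaptotagmin of layer 6, was higher at 0.74, but its KO2 level of 52.4 CPM lay between WT1 (45.8) and WT2 (68.7), and KO3 was at 115 CPM. Crym, an intracellular thyroid hormone binding protein, was higher in both cKO labels, at 133 and 115 CPM against 76.3 and 66.3 in WT. Ctgf (0.72) and Lpar1 (0.73) were called higher through the KO2 label alone, whose levels of 66.4 and 55.9 CPM stood beside 11.5 and 2.88 in KO3. KO2 was also the label with the highest sums of astrocyte and vascular genes, whose part in these levels was not tested. Cplx3 had 16 UMIs in all, 13 of them WT1 and 3 WT2, too few to be tested, and the cKO cells held 0.

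Upper layer factors and paralogs were compared in the same way. The median log2 ratio of 9 upper layer factors was -0.17. Of 9 paralogs tested 0 were lower and 1, Nfic, was higher at 0.87 (0.33 to 1.51), beside 7.2% and 10.1% over all genes tested. Nfix, the paralog nearest in role to Nfia and Nfib, gave 0.20, and Bcl11a, the paralog of Bcl11b, gave -0.29. Neither passed 1.5-fold.

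The genes range from 6.10 kb (Fezf2) to 954 kb (Sox5) in length. The 5 factors over 100 kb, which are Foxp2, Sox5, Tle4, Nfia and Nfib, had ratios from -0.32 to 0.30 with a median of 0.15. The 5 shorter genes had ratios from -0.97 to 0.65 with a median of -0.31, and both called factors were among them (Nr4a2 at 17.2 kb and Etv1 at 91.1 kb).

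The factors were detected together more often than their separate shares would give. For each pair the cells holding both were counted against the number given by multiplying the detection shares within depth quartiles of each label. With all UMIs 40 of 45 pairs were above the expected number, and the counting interval lay above 1 for 8 of them and below 1 for 0. Depth still differed between cells within a quartile, and its part in these counts was not tested. Summed over pairs with all UMIs, the ratio was 1.18 among the factors and 1.08 with other deep layer and subplate genes. It was 1.02 with paralogs and 0.97 with upper layer factors. Of the 8 pairs 6 contained Tle4. Tle4 was found with Foxp2 in 25 cells against 14.3 expected (a ratio of 1.75, 1.13 to 2.58), with Nfia in 65 against 38.3, with Nr4a2 in 26 against 15.6 and with Tbr1 in 54 against 38.0. The other pairs were Tle4 with Sox5 and with Bcl11b, and Nfia with Foxp2 and with Fezf2. Tbr1 and Fezf2, which oppose each other in layer 6 and layer 5, were together in 26 cells against 23.1 expected (0.73 to 1.65), and Foxp2 and Nr4a2 in 5 against 7.36.

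**Figure D4:**
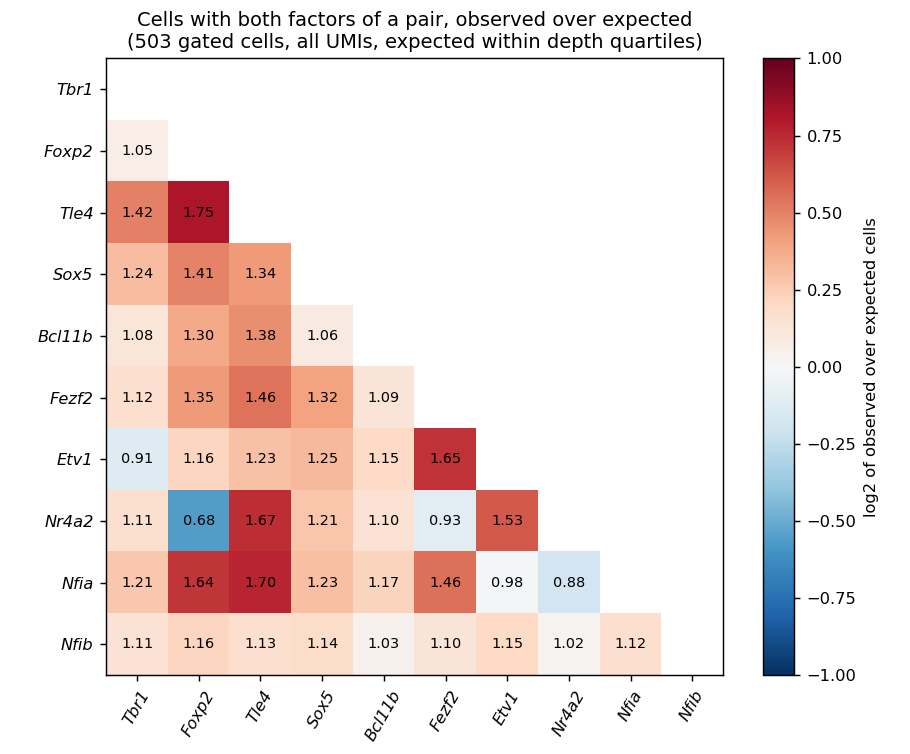
Observed over expected number of cells holding both factors of a pair among 503 gated cells, with all UMIs, as the printed number and as color on a log2 scale. The row and column of Tle4 hold the darkest cells (1.75 with Foxp2 and 1.70 with Nfia), and the lowest value is 0.68 for Foxp2 with Nr4a2.

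At equal depth the counts were smaller. In cells thinned to 1000 UMIs 22 pairs had at least 5 expected cells, and all 22 were above expected. The counting interval lay above 1 for 3 of them. These were Bcl11b with Fezf2 (14 cells against 7.05), Sox5 with Nfia (18 against 9.45) and Tle4 with Nfib (27 against 17.1). None of the 3 was among the 8 pairs found with all UMIs. There the ratio was 1.23 (0.96 to 1.55) for Sox5 with Nfia and 1.13 (0.91 to 1.38) for Tle4 with Nfib. At equal depth the pair of layer 5 factors, Bcl11b with Fezf2, was above expected in both genotypes, with 7 cells against 4.10 in WT and 7 against 2.95 in cKO. With all UMIs the pair gave 26 cells against 23.2 in WT, a ratio of 1.12 (0.73 to 1.65). Tle4 with Foxp2, with under 5 expected cells, gave 8 against 2.44, and Tle4 with Tbr1 11 against 3.81. Tle4 with Nr4a2 gave 2 against 2.42, so that the excess found with all UMIs was not seen at equal depth, nor with the gate at 1 UMI (3 against 3.30) or 3 UMIs (1 against 2.11).

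The factors were also paired with genes outside the 10. Summed over all pairs in thinned cells, the factors gave 497 joint detections with each other against 340 expected, a ratio of 1.46. Their ratio was 1.06 with 20 other deep layer and subplate genes, 0.99 with 16 paralogs and 0.92 with 9 upper layer factors. Of partners with at least 5 expected cells, Bcl11b was found most above expected with Syt6 (15 against 8.19), Tshz3 and Crym. Foxp2 and Tle4 were both found most above expected with Pcp4, at 9 against 5.07 and 14 against 10.3 cells, with intervals that include 1. The genotypes went opposite ways for Tle4 with Pcp4, at 11 against 5.27 cells in WT (2.09, 1.04 to 3.73) and 3 against 5.07 in cKO (0.59, 0.12 to 1.73). Pairs share cells and genes, so the totals are descriptions.

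By label the factors gave 1.58 and 1.80 times the expected joint detections in WT1 and WT2 and 1.22 and 1.31 times in KO2 and KO3. Both cKO labels were below both WT mice. Without Nfia and Nfib the ratios were 1.66, 1.87, 1.43 and 1.71, so that KO3 lay between the WT mice. In cells with at most 5% mitochondrial UMIs the order of the genotypes turned, at 1.42 in WT and 1.46 in cKO. With the 20 other deep layer and subplate genes the ratios were 1.10 and 1.25 in WT1 and WT2 and 0.96 and 0.97 in KO2 and KO3, in the same order of genotypes. With upper layer factors the ratios were 0.91 and 0.86 in WT1 and WT2 and 0.94 and 0.95 in KO2 and KO3. With all UMIs the ratios for the 20 other deep layer and subplate genes were closer together. They were 1.108 and 1.088 in WT1 and WT2 and 1.038 and 1.075 in KO2 and KO3, all above 1.

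**Figure D5:**
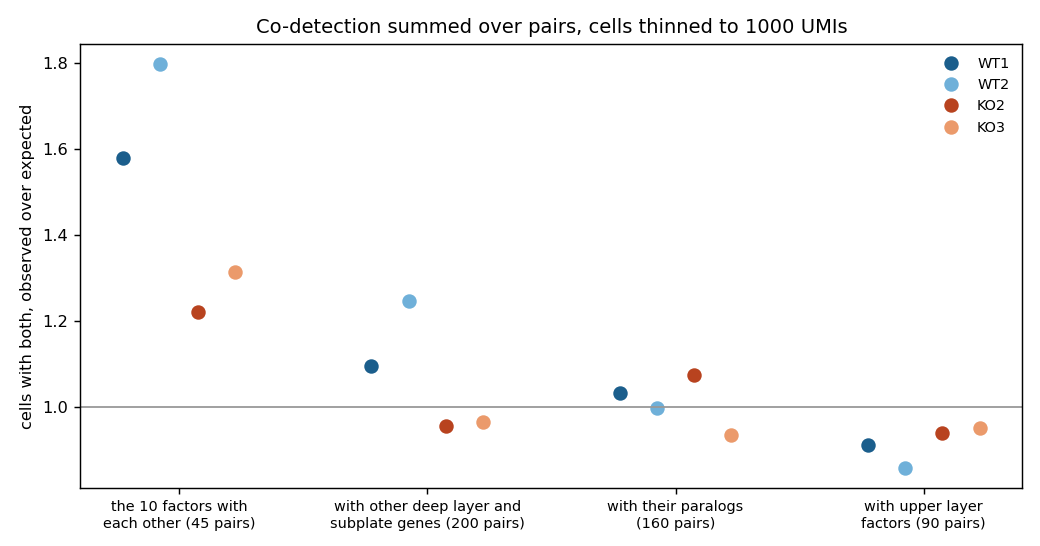
Joint detections summed over pairs, observed over expected, in cells thinned to 1000 UMIs, with 1 point for each label and a line at 1. Among the 10 factors WT1 and WT2 stand at 1.58 and 1.80 and KO2 and KO3 at 1.22 and 1.31, with other deep layer and subplate genes WT1 and WT2 lie above 1 and KO2 and KO3 below 1, with paralogs the points lie around 1, and with upper layer factors all 4 lie below 1. With all UMIs, not drawn, all 4 labels were above 1 for the other deep layer and subplate genes.

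The number of factors per cell was also compared at 1000 UMIs. Cells with 2 or more factors made up 32.8% in WT1, 34.7% in WT2, 32.5% in KO2 and 34.9% in KO3, and pooled cKO exceeded pooled WT by 0.59 percentage points. Cells with at least 1 factor were 62.6% of WT (56.0 to 68.8) and 74.4% of cKO (68.7 to 79.6). Cells with none were 36.6% and 38.6% in WT1 and WT2 and 26.2% and 25.3% in KO2 and KO3. Of the factors, Nfib and Nfia had the largest gains in thinned cells, from 32.3% to 41.7% and from 10.2% to 16.2%. Cells with 3 or more factors were 15.7% of WT and 13.5% of cKO cells, and with all UMIs 55.3% and 45.5%. In cells with at most 5% mitochondrial UMIs, 67.6% of WT and 69.1% of cKO cells held at least 1 factor, and KO3 (67.4%) lay between WT2 (65.1%) and WT1 (71.4%).

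The factors were also read in other classes of cells, as a check of free RNA and of cells in which Cre is not active. In inhibitory cells, 54 of WT and 96 of cKO, Bcl11b was at 750 CPM in pooled WT and 956 in pooled cKO, a direction opposite to that in the gated cells. By label, the cKO labels did not both lie above both WT mice in inhibitory cells. The difference between classes was not tested. Foxp2 was at 161 and 155 CPM in WT and cKO inhibitory cells, Tbr1 at 24.4 and 22.5, and Nr4a2 at 43.8 and 12.9 on 9 and 4 UMIs. Top1 in the same cells was at 604 and 486 CPM. In the 198 cells with astrocyte markers Top1 was at 500 CPM in WT and 272 in cKO, and 38.4% of the cells held a UMI of Aqp4, a defining astrocyte gene. Whether these barcodes also held RNA of other cells was not tested.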

How the data were processed

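The authors deposited 1 table of raw UMI counts, with genes in rows and cell barcodes in columns and no normalization. They processed the reads by the Drop-seq Toolkit and aligned them with STAR to mm10. The submitters' processing notes also name hg19. The gene annotation is not given in the sources used here. Of 2413 barcodes, 815 with over 10% mitochondrial UMIs were left out and 0 had under 300 genes. Columns of per-sample values not used numbered 0. Of the kept barcodes 1 occurred in more than 1 library.

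Counts of gated cells were summed per WT mouse and over all cKO cells, scaled with TMM factors (edgeR 4.0.16, R 4.3.3) and compared as log2 ratios with a prior count of 2. Levels are CPM without these factors. Intervals of ratios are exact binomial ones on the share of UMIs from cKO cells, and those of CPM are exact Poisson ones. PCR duplicates are removed by the UMIs, and the intervals cover counting error only. Cells were thinned by drawing 1000 UMIs without replacement with 1 seed, leaving out 2 shallower cells. Classes other than excitatory needed 3 UMIs of their marker list (inhibitory cells 2 UMIs of Gad1 and Gad2) and no other class. No doublet caller was run. Cells with markers of several types stayed in the gate, 213 of 503 with 3 or more glial or vascular UMIs, and were left out as an alternative.

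The text names the 10 factors, Top1, the gate genes, called genes of each list and the partners most above expected. Genes outside that rule were chosen after their values were seen. The factors, lists and rules were chosen with earlier results of these data known. The results of 1 gene are not reported here, and it was left out of the counts, medians and totals of the gene lists. Scripts were tested on simulated data, with finer depth strata for pairs than the quartiles used here. Gene positions are from GENCODE vM21 and upstream bases from RefSeq. Alternatives covered scaling, prior count, gate, filters, thinning and leaving out each WT mouse or cKO label. WT and cKO cells came from separate samples per the labels, and whether samples were processed together is not given.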

Additional observations from a re-analysis of the deposited data

How the results depend on the processing

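With no scaling factors the median ratio of all genes was 0.08, under 0.1, and the same 2 factors were called. The count of factors lower in cKO was 2 without Sla in the gate, without any UMI of Gad1 or Gad2, without cells holding other markers and without label KO3, with Bcl11b beside Nr4a2 in each, and 2 in thinned cells, with Fezf2. It was 0 in cells with at most 5% mitochondrial UMIs, with the gate applied after thinning and at 2-fold. Leaving out each WT mouse gave 1 to 2, and Bcl11b passed without WT1. The count higher in cKO was 0 with the gate at 1 UMI, without Gad1 or Gad2 UMIs, with at least 100 UMIs per gene, at 2-fold and without label KO3, and 0 to 1 without each WT mouse. It was 2 with the gate after thinning, where Nfia joined Etv1. Nfia took the place of Etv1 in thinned cells, and Tle4 and Nfia the places of Nr4a2 and Etv1 without cells holding striatal markers. The gate after thinning, leaving out cells under 2000 UMIs and leaving out cells with striatal markers were chosen after seeing the data. Over 20 settings, the reported one included, the ratio ran from -1.44 to -0.08 for Nr4a2, -0.80 to -0.01 for Bcl11b, -0.62 to -0.12 for Tle4, 0.04 to 1.59 for Etv1 and 0.07 to 0.42 for Nfib, each with 1 sign, and from -0.29 to 0.94 for Nfia.

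The difference in cells with 2 or more factors, 0.59 percentage points, was 2.92 with all UMIs, -1.70 with the gate at 1 UMI, 6.08 with the gate at 3 UMIs, -2.47 with at most 5% mitochondrial UMIs and -1.12 without label KO3, and -0.44 to 1.38 without each WT mouse. Of the 22 pairs, 6 had an interval above 1 with the gate at 1 UMI and 1 with the gate at 3 UMIs. The causes were not tested. The cKO cells cannot be matched to numbered samples, so cKO had no replicates, and no result comes from a test. The labels give no pairing of WT with cKO mice, so no paired analysis was possible. With 77 to 106 UMIs, Foxp2, Etv1 and Fezf2 limit the depth most.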

Other observations

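Over all genes tested, 7.2% were called lower and 10.1% higher. Of the 13 immediate early genes 8 were tested, and 1 was lower and 3 were higher in cKO. Ier2 was lower, with 16 and 8 UMIs in WT1 and WT2 and 2 and 3 in KO2 and KO3. The summed level of the list was 194, 219, 311 and 262 CPM in WT1, WT2, KO2 and KO3. Of 7 striatal projection neuron genes tested 2 were lower and 1 was higher in cKO, and the list summed to 586, 955, 650 and 818 CPM, with the cKO labels between the WT mice. In the 67 cells with 5 or more UMIs of Bcl11b the same list was at 1006 CPM, against 668 CPM in the other 436 gated cells, and Neurod6 at 533 against 637 CPM. Nfia was at 287 CPM in these 67 cells and 147 in the others. The cells were picked on Bcl11b, and these values are descriptions.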
